A study of Crinum x powellii with 21 samples.

Results

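Callus of Crinum x powellii 'Album' grown in darkness was set against bulb, the organ that gave the explants. The comparison took every library that the labels give as callus kept 24 h in the dark on 4 mg/L of 2,4-D (n = 3, replicates A, B and C) and every library of bulb (n = 3, replicates 1, 2 and 3), which is 6 of the 21 libraries of the series. All libraries were RNA-seq of polyadenylated RNA from the same cultivar. The other 15 libraries were callus in darkness with 2 mg/L of 2,4-D (n = 2), callus in 14 h of light and 10 h of darkness with 2 mg/L (n = 3) or 4 mg/L (n = 3), basal plate (n = 2), leaves (n = 3) and root (n = 2), and they are used below to describe where else the features of the comparison were found. For the callus given here as 2 mg/L the treatment label states that dose but the library titles have a 3, so the lower dose is uncertain.

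A bulb is a short stem with fleshy scales that store reserves, and twin-scale explants are pairs of such scales held together by a piece of the basal plate. Basal plate is a separate group here, so the bulb libraries may not represent all tissue of such explants. 2,4-D is a synthetic auxin, a class of growth regulator that, together with a cytokinin, makes cut plant tissue resume division and form callus, a mass of cells without organs. Amaryllids are known for their alkaloids, which are found in the bulb, and callus culture is studied as a way to grow such tissue in vitro.

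All callus of the series came from sterilised explants on MS medium with sucrose, a biocide, yeast extract and the cytokinins BAP and kinetin, to which 2,4-D was added. The bulbs were bought commercially, stored cold and then held for 24 h at room temperature before their organs were frozen. The labels do not give the age of the callus, nor do they tie a callus library to a bulb library. RNA was extracted with a Qiagen RNeasy kit for callus, and in a CTAB buffer from a larger mass of tissue for bulb and the other organs, per the labels' protocols. Tissue, culture, 2,4-D and RNA isolation therefore all differ between the callus and the bulb libraries, and their parts cannot be told apart here. The labels give no light condition for the bulbs, so whether darkness differs as well is not known, and its part cannot be told apart either. Nothing in the labels says that the replicates came from separate cultures or bulbs, so the p-values measure the spread between libraries, which may be technical.

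Expression is given for features, the gene-level units of a Trinity transcriptome assembly, of which 676992 had isoform counts. No gene name, function or sequence accompanies them in the files. Roles of single features are therefore not given, and the tissue labels could not be checked against marker genes. Estimated counts added up to 51608142, 49768562 and 47354328 in the callus libraries A, B and C, and to 39805361, 29530840 and 41784168 in the bulb libraries 1, 2 and 3. Across features, Pearson correlations of log2(CPM + 1) were 0.988 to 0.991 between callus libraries and 0.992 to 0.993 between bulb libraries, and 0.848 to 0.865 between a callus and a bulb library. Each library thus lay closer to its own group than to the other.

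Most features that could be tested differed. Of 72753 features that passed the filter on low counts, 45167 were called, meaning that their FDR was under 0.05 in edgeR's quasi-likelihood F test (62.1% of those tested). They comprised 25907 that were higher in callus (35.6%) and 19260 that were lower (26.5%). Changes of at least 2-fold were called for 23070 higher (31.7%) and 13645 lower features (18.8%), and changes of at least 10-fold for 7716 and 3172. The split by direction rests on the scaling. TMM scaling, used here, put the median log2 fold change of all features at 0.33, whereas scaling by library totals put it at 0.81 and gave 35232 higher and 13040 lower calls. With 62.1% of all features called, a count of called features among those described below says little by itself.

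To follow the bulb's own transcripts, a bulb feature was defined as one with at least 1 CPM (the estimated count scaled to a common library size, here after TMM) in each bulb library, which 28079 features had. It was termed kept with at least 1 CPM in each callus library as well, lost with under 0.1 CPM in each callus library, and partly kept otherwise. The callus kept 23965 bulb features (85.3%), partly kept 3619 (12.9%) and lost 495 (1.76%). In the opposite direction, 30662 features had at least 1 CPM in each callus library, and 880 of them (2.87%) had under 0.1 CPM in each bulb library and were termed gained. These counts also rest on the scaling. With CPM on library totals, 88.8% of 26706 bulb features were kept and 373 were lost, and 1078 features were gained. The limit of 0.1 CPM equals 5.39 to 6.06 estimated counts in the callus libraries and 2.40 to 3.67 in the bulb libraries, so a lost or gained feature was not detectable above a few reads at this depth rather than shown to be absent. The lost features nearest to the limit reached 0.0990 CPM in their highest callus library, and the nearest features outside it reached 0.102 CPM. No reads at all were counted in any callus library for 144 of the lost features, nor in any bulb library for 440 of the gained ones.

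The kept features held most of the estimated counts and of the TPM on both sides. They took 90.2% ± 0.364 of the estimated counts in callus and 94.8% ± 0.347 in bulb (SD, n = 3 each), and every callus library was below every bulb library. The lost features took 0.00127% ± 0.0000469 of the counts in callus and 0.620% ± 0.0391 in bulb (SD, n = 3 each). The gained features took 1.43% ± 0.0749 in callus and 0.00097% ± 0.000193 in bulb (SD, n = 3 each). Per length, as shares of TPM (transcript abundance per length, scaled to the same total in every library), the kept features took 79.8% in callus and 87.9% in bulb, and the gained features 1.77% in callus and 0.0018% in bulb.

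Features that were abundant in the bulb were seldom lost, although many stood lower in callus. Of the 1783 bulb features with a mean of at least 100 TPM in bulb, 96.5% were kept and 1.12% were lost. Of the 12503 with 10 to 100 TPM, 91.8% were kept and 1.05% lost, and of the 12352 with 1 to 10 TPM, 78.4% were kept and 2.53% lost. The share that fell by at least 2-fold in callus was 62.8% in the first of these 3 levels, 38.0% in the next and 27.5% at 1 to 10 TPM, and with library totals it was 42.8%, 23.0% and 19.2%. The share that rose by at least 2-fold ran the other way, at 1.18%, 3.02% and 13.4%, and with library totals at 3.03%, 7.16% and 24.1%. At 1 to 10 TPM, falls thus outnumbered rises with TMM scaling and rises outnumbered falls with library totals. Of the 1441 bulb features with under 1 TPM, 74.6% were kept and 2.15% lost, and 17.1% fell and 33.9% rose by at least 2-fold. The levels were set by the bulb libraries of the same contrast, so these shares are a description.

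Being kept did not mean standing at the same level. Among the 23965 kept features, 5042 were called higher in callus, 11421 lower and 7502 were not called, and 15366 (64.1%) had a fold change within 2-fold in either direction. Their median log2 fold change was −0.36 with TMM scaling, but 0.13 with library totals, where 9054 were higher and 6995 lower, so whether kept features as a group stood higher or lower in callus is not settled by these data. Changes of at least 2-fold were called for 2542 higher and 6056 lower kept features, and changes of at least 10-fold for 282 and 391. All 495 lost and all 880 gained features were called, but the limits that define them set callus and bulb at least 10-fold apart, so this is a description. Of the 3619 partly kept features, 3157 were called lower and 0 higher. By definition each had under 1 CPM in at least 1 callus library, so this direction was largely fixed in advance and is a description too.

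**Figure D1:**
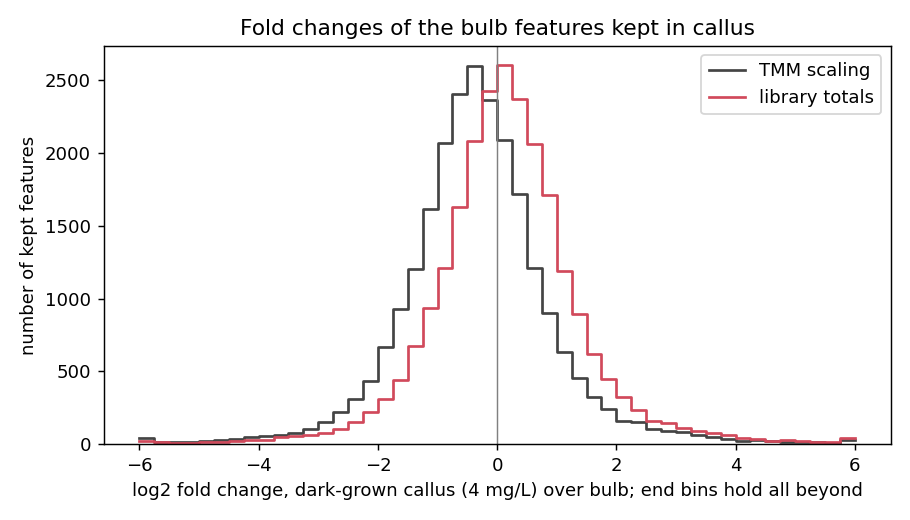
Number of kept bulb features (vertical axis) by log2 fold change of dark-grown callus over bulb (horizontal axis), with TMM scaling (dark line) and with library totals (red line). The curves have similar shapes, with medians of −0.36 and 0.13, on either side of the grey line at no change.

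The most abundant features were not the same ones in callus and bulb. Ranked by mean TPM, the 10 most abundant of callus and the 10 most abundant of bulb had none in common, the 100 most abundant shared 33, and the 1000 most abundant shared 549. The callus list of 10 took 2.85% ± 0.199 of the TPM in callus and 0.891% ± 0.199 in bulb, and the bulb list of 10 took 0.474% ± 0.0284 in callus and 3.20% ± 0.210 in bulb (SD, n = 3 each). All 10 of the bulb's most abundant features were kept, and all 10 stood at least 2-fold lower in callus with each scaling tried. Of the bulb's 100 most abundant, 93 were kept, 5 partly kept and 2 lost, and 94 stood lower in callus with TMM scaling or 90 with library totals. Both lists were chosen by their level in 1 of the compared groups, so these counts describe the lists and are not a test.

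The most abundant feature of the bulb had 57.1, 33.3 and 41.7 TPM in callus libraries A, B and C, against 6579, 6344 and 4711 TPM in bulb libraries 1, 2 and 3. Every callus library was below every bulb library, and the log2 fold change was −5.78 ± 0.21 (SE). It was highest in bulb and next highest in light-grown callus with 2 mg/L, where it averaged 3237 ± 1022 TPM (SD, n = 3). It averaged 29.4 ± 0.915 TPM in dark-grown callus with 2 mg/L (n = 2) and 47.4 ± 6.17 TPM in light-grown callus with 4 mg/L (n = 3), close to the 44.0 ± 12.1 TPM of dark-grown callus with 4 mg/L (n = 3). In the other organs it averaged 563 ± 225 TPM in basal plate (n = 2), 60.9 ± 9.86 TPM in leaves (n = 3) and 301.4 ± 185 TPM in root (n = 2). The second most abundant bulb feature had 375, 461 and 228 TPM in the callus libraries A, B and C, against 3431, 5976 and 4804 TPM in the bulb libraries 1, 2 and 3. The groups did not overlap, with a log2 fold change of −4.39 ± 0.25 (SE). It also averaged 4361 ± 867 TPM in light-grown callus with 2 mg/L, a level within the range of the bulb libraries. The fourth had 131, 156 and 147 TPM in callus and 3401, 3170 and 3116 TPM in bulb, and averaged 1652 ± 214 TPM in light-grown callus with 2 mg/L.

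Levels in the other callus groups did not enter the choice of the bulb's 10 most abundant features, so the difference between callus groups could be tested there. In edgeR's fit of all 11 callus and the 3 bulb libraries, 5 of the 10 were lower in the dark-grown callus with 4 mg/L than in light-grown callus with 2 mg/L and 1 was higher, where 24.0% of all 123345 features tested were called. Among the kept features, the class of all 10, the called share in this contrast was 41.8%. The most abundant bulb feature differed by a log2 fold change of −4.55 ± 0.24 (FDR 9.17e-16, edgeR), the second by −3.95 ± 0.27 (FDR 6.16e-13, edgeR) and the fourth by −3.70 ± 0.18 (FDR 2.50e-16, edgeR). Against light-grown callus with 4 mg/L, 5 were lower and 1 was higher, where 11.9% of all features and 27.9% of kept features were called. The most abundant bulb feature was not called there (log2 fold change 0.19 ± 0.21, FDR 0.670, edgeR). Against dark-grown callus with 2 mg/L none of the 10 was called, where 0.741% of all features and 2.07% of kept features were. The log2 fold changes of the 10 ran from −0.40 to 0.80.

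Of the callus's 10 most abundant features, 9 were kept bulb features and 1 was gained. Ranks 1 to 5 were abundant in both tissues, with means of 2374 to 5220 TPM in callus and 1117 to 2022 TPM in bulb. The sixth stood apart from them, at 2285, 1856 and 2719 TPM in callus libraries A, B and C, against 39.3, 25.5 and 18.8 TPM in bulb libraries 1, 2 and 3. The tenth had 1486, 1458 and 1263 TPM in callus, against 12.9, 12.2 and 10.0 TPM in bulb. Their log2 fold changes were 6.50 ± 0.27 and 6.22 ± 0.18 (SE), with no overlap between the groups. The tenth averaged 1121 ± 543 TPM in dark-grown callus with 2 mg/L (n = 2), 83.7 ± 23.1 TPM in light-grown callus with 2 mg/L (n = 3) and 816 ± 151 TPM in light-grown callus with 4 mg/L (n = 3), and 90.7 ± 14.9 TPM in leaves (n = 3). Ranks 1 and 5 belong to the same Trinity cluster, so the quantifier may have divided reads between them and their separate values are uncertain.

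**Figure D2:**
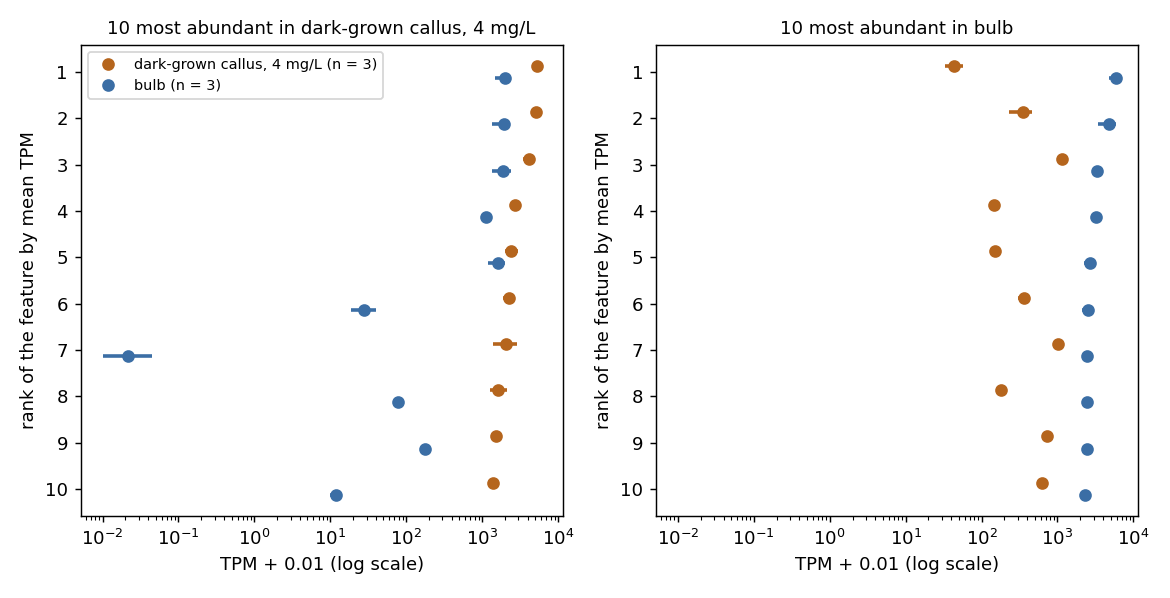
Mean TPM (horizontal axis, log scale, 0.01 added) of the 10 most abundant features of dark-grown callus (left) and of bulb (right), by rank, in dark-grown callus with 4 mg/L (brown) and bulb (blue), with lines from the lowest to the highest of 3 libraries. In the bulb list every brown point lies left of its blue point, and in the callus list the points lie close together at ranks 1 to 5 and up to 5 orders of magnitude apart below.

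The lost features were mostly weak in the bulb: the median of their mean bulb level was 2.94 CPM, and 74 of the 495 had at least 10 CPM in each bulb library. Their summed level, with all 21 libraries scaled together, was 12.6, 12.1 and 12.4 CPM in callus libraries A, B and C, against 9328, 8435 and 7868 CPM in bulb libraries 1, 2 and 3. The 10 largest made up 50.1% to 56.0% of the bulb sums. Replicates spread more for lost than for kept features, with a median coefficient of variation over the bulb libraries of 19.3% and 11.02%. The 2 classes were not matched for level, as their median bulb levels were 4.78 TPM for lost and 12.0 TPM for kept features.

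The other callus groups had not been used to define the lost features, and they did not all lack them. The summed level was 19.1 and 21.2 CPM in dark-grown callus with 2 mg/L, 2768 to 3731 CPM in light-grown callus with 2 mg/L and 114 to 184 CPM in light-grown callus with 4 mg/L. Among these 3 groups dark-grown callus with 2 mg/L was lowest and light-grown callus with 2 mg/L was highest, with no overlap. None of the 495 had at least 1 CPM in each library of dark-grown callus with 2 mg/L, whereas 84 (17.0%) did in light-grown callus with 2 mg/L and 19 in light-grown callus with 4 mg/L. Counts under 0.1 CPM in each library of all 3 other callus groups were found for 126 lost features (25.5%). In the light-grown callus with 2 mg/L, 10 features made up 58.2% to 64.6% of the sum.

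Many of the lost features were also found in the other organs. At least 1 CPM in each library was found for 146 of them in basal plate, 143 in leaves and 162 in root, and 274 (55.4%) reached it in at least 1 of these organs. All 3 other organs had it for 46, and 19 were under 0.1 CPM in every library of these organs. The summed level was 2287 and 4295 CPM in the basal plate libraries, 4542 to 5620 CPM in leaves and 2118 and 3331 CPM in root.

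Crpow_TRINITY_DN7946_c0_g1 was the lost feature with the highest bulb level. It had 2, 3 and 3 estimated counts in callus libraries A, B and C, against 50491, 33800 and 40592 in bulb libraries 1, 2 and 3. That is 0.0466 ± 0.0120 CPM in callus and 1353 ± 226 CPM in bulb (SD, n = 3 each), and the pooled counts stood in a bulb to callus ratio of 28964 (95% counting interval 14699 to 67090). The log2 fold change of callus over bulb was −14.75 ± 0.27 (SE). The feature was picked by its levels in the compared libraries, so this is a description and no p is given. With all 21 libraries scaled together, as for every group below, it had 0.0369 to 0.0636 CPM in the dark-grown callus with 4 mg/L and 1314 to 1793 CPM in bulb. It was also abundant in the other organs, with 936 and 1183 CPM in basal plate, 315 to 852 CPM in leaves and 376 and 729 CPM in root. In callus it reached 5.997 to 11.3 CPM in light with 2 mg/L, 0.315 to 0.875 CPM in light with 4 mg/L and 0.367 and 0.0873 CPM in darkness with 2 mg/L. Every organ library was thus above every callus library of the series.

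Crpow_TRINITY_DN3885_c0_g1, the next of the lost features, had 2, 5 and 0 estimated counts in callus libraries A, B and C, against 28944, 11869 and 17108 in bulb libraries 1, 2 and 3. It averaged 0.0394 ± 0.0429 CPM in callus and 615 ± 236 CPM in bulb (SD, n = 3 each), and the pooled counts gave a bulb to callus ratio of 15353 (95% counting interval 7451 to 38188). The log2 fold change was −13.80 ± 0.43 (SE), again without a p because the feature was picked by its levels in these libraries. On the scale of all 21 libraries it had 0 to 0.0970 CPM in the dark-grown callus with 4 mg/L and 549 to 1028 CPM in bulb. Unlike the first feature it was low in root, at 0.126 and 2.94 CPM, while leaves had 494 to 1081 CPM. The basal plate libraries differed, at 66.4 and 576 CPM. Light-grown callus with 2 mg/L had 0.318 to 3.38 CPM, whereas dark-grown callus with 2 mg/L and light-grown callus with 4 mg/L had at most 0.0221 CPM.

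The 880 gained features had a median of their mean callus level of 3.00 CPM, and 130 had at least 10 CPM in each callus library. Their summed level was 14259, 13852 and 13526 CPM in callus libraries A, B and C, against 14.4, 10.4 and 15.3 CPM in bulb libraries 1, 2 and 3. In the groups that did not define them it was 9337 and 13291 CPM in dark-grown callus with 2 mg/L, 6115 to 8994 CPM in light-grown callus with 2 mg/L and 15021 to 18715 CPM in light-grown callus with 4 mg/L. In the other organs it was 381 and 622 CPM in basal plate, 529 to 1226 CPM in leaves and 1248 and 2940 CPM in root. Every callus library of the series was thus above every organ library.

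At least 1 CPM in each library was found for 734 gained features in dark-grown callus with 2 mg/L, 671 in light-grown callus with 4 mg/L and 350 in light-grown callus with 2 mg/L, and 294 (33.4%) reached it in all 4 callus groups. None was under 0.1 CPM throughout the 3 other callus groups. In the organs, 30 reached 1 CPM in each library of basal plate, 45 in leaves and 81 in root, and 112 (12.7%) were under 0.1 CPM in every library of these 3 organs. Present in all 4 callus groups and under 0.1 CPM in each of these organs were 31 features.

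**Figure D3:**
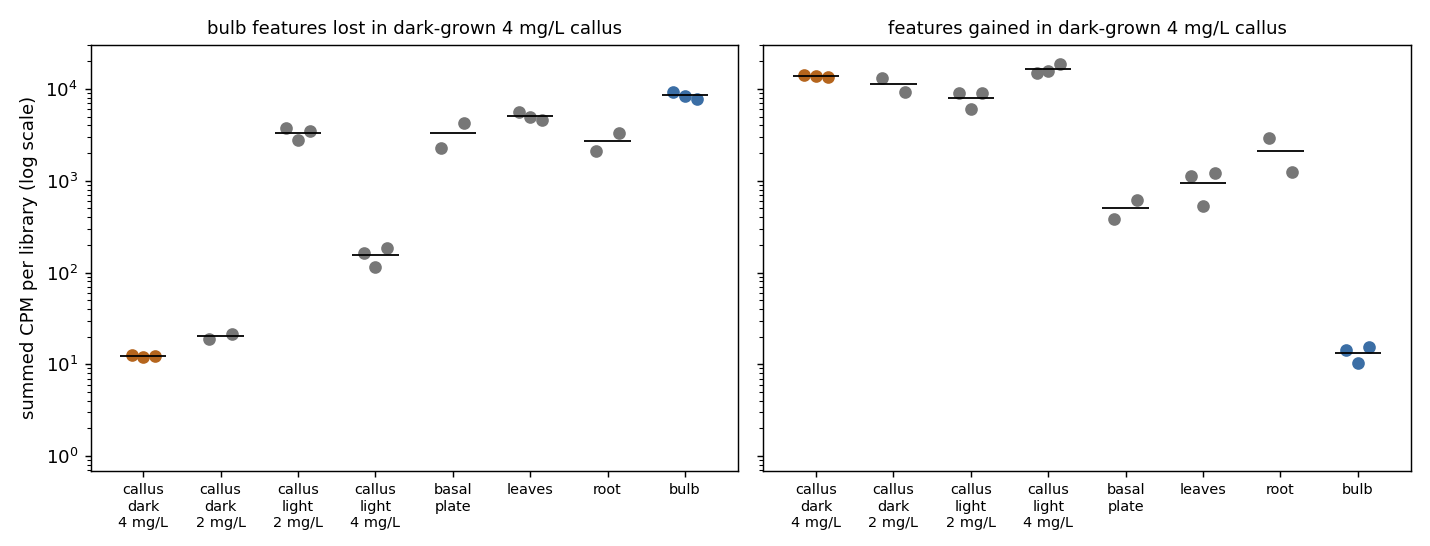
Summed CPM per library (vertical axis, log scale) of the 495 lost (left) and the 880 gained features (right) in the 8 groups, with a point per library and a bar at the mean. Lost features stand at 12.1 to 12.6 CPM in dark-grown callus with 4 mg/L, at 2768 to 3731 CPM in light-grown callus with 2 mg/L and at 7868 to 9328 CPM in bulb, while gained features stand at 6115 CPM or more in every callus library.

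Crpow_TRINITY_DN110891_c1_g1 was the gained feature with the highest callus level and the seventh most abundant feature of the callus. It had 191128, 123152 and 85624 estimated counts in callus libraries A, B and C, against 0, 0 and 2 in bulb libraries 1, 2 and 3. It averaged 2279 ± 800 CPM in callus (SD, n = 3), and the callus to bulb ratio of the pooled counts was 107765 (95% counting interval 29832 to 889856). The log2 fold change was 16.52 ± 0.45 (SE), a fitted value that rests on the 2 counts of bulb replicate 3, without which it was 19.66. No p is given, since the feature was picked by its levels in the compared libraries. On the scale of all 21 libraries it had 3527, 2390 and 1814 CPM in the callus libraries A, B and C. On that scale it had 2330 and 895 CPM in dark-grown callus with 2 mg/L, 2227 to 2344 CPM in light-grown callus with 4 mg/L and 81.4 to 409 CPM in light-grown callus with 2 mg/L. The basal plate, leaves and root libraries had at most 0.428 CPM, so that the feature was near or at 0 in every organ library and at least 81.4 CPM in every callus library.

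Crpow_TRINITY_DN13478_c0_g1 had 62797, 82924 and 33320 estimated counts in callus libraries A, B and C, against 0 in each bulb library. It averaged 1022 ± 397 CPM in callus (SD, n = 3) and, set against a floor of 3 counts over all bulb libraries, was at least 32165-fold higher in callus. This feature was picked in the same way, so no p is given. On the scale of all 21 libraries it had 706 to 1609 CPM in this callus. On that scale it had 1244 and 547 CPM in dark-grown callus with 2 mg/L, 31.4 to 119 CPM in light-grown callus with 2 mg/L and 307 to 505 CPM in light-grown callus with 4 mg/L. Among the organ libraries root replicate 3 stood out with 27.2 CPM, and the others had at most 0.314 CPM.

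The 2 kept features named here were picked as the most abundant that were not called and had an absolute log2 fold change under 0.5. Their likeness in callus and bulb with TMM scaling therefore restates the choice and is a description. Crpow_TRINITY_DN1738_c0_g1 had 8981, 6022 and 6737 CPM in callus libraries A, B and C, against 5424, 9341 and 7084 CPM in bulb libraries 1, 2 and 3, and the groups overlapped. Its log2 fold change was −0.01 ± 0.19 (SE; FDR 0.977, edgeR), and 0.49 with library totals (FDR 0.0321, edgeR). It is the fifth most abundant feature of the callus, whose division of reads is uncertain as stated above. Crpow_TRINITY_DN2385_c0_g1 had 1260, 1392 and 1945 CPM in callus, against 1502, 1659 and 1722 CPM in bulb, again with overlap. Its log2 fold change was −0.09 ± 0.16 (SE; FDR 0.645, edgeR), and 0.40 with library totals (FDR 0.0275, edgeR). A p that misses the threshold does not show that the levels were equal, and for both features the call rests on the scaling.

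**Figure D4:**
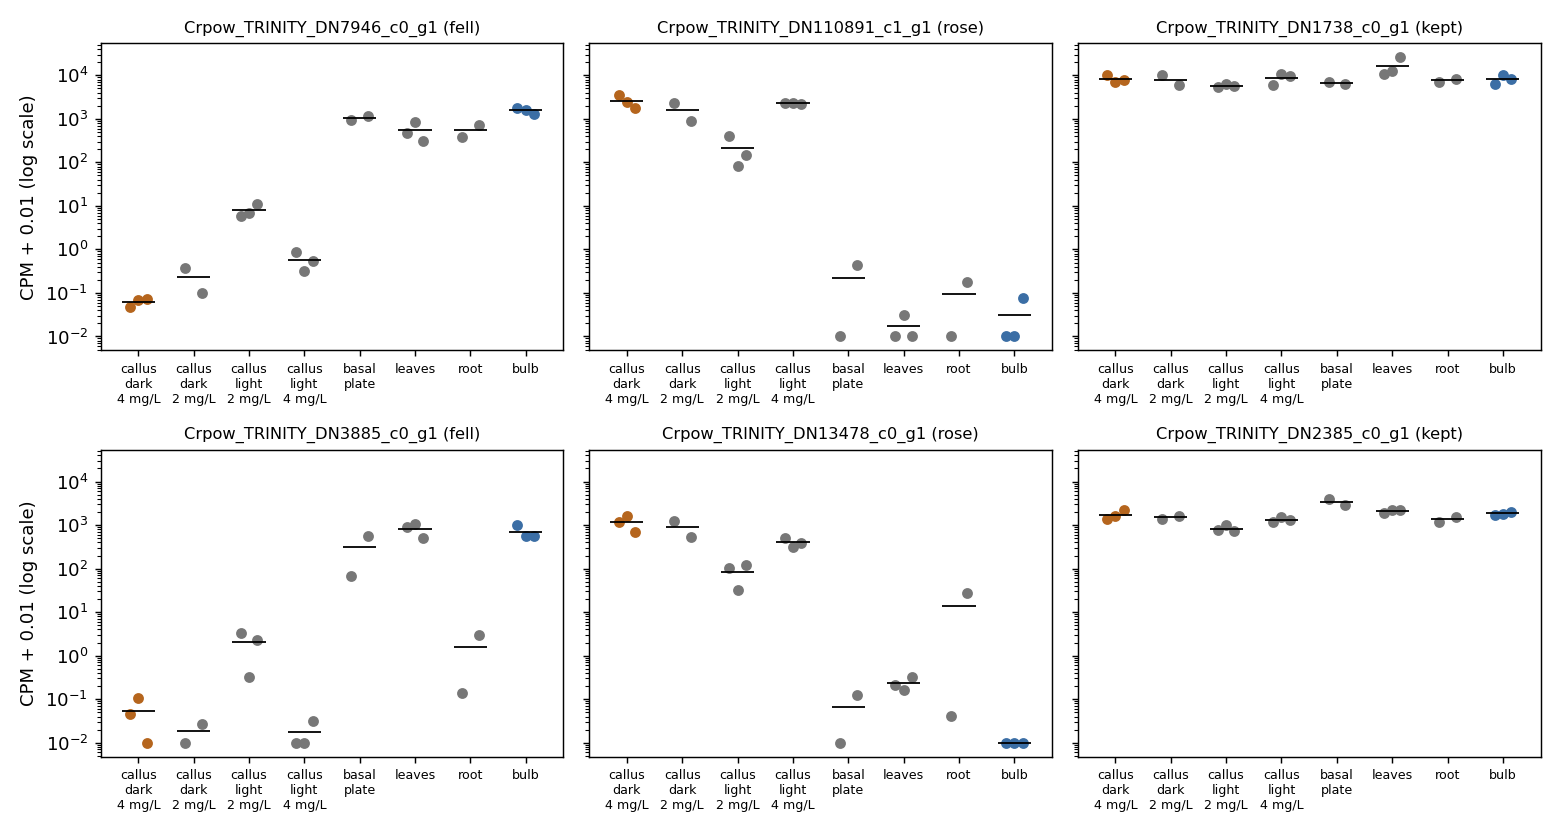
CPM (vertical axis, log scale, 0.01 added, all 21 libraries scaled together) of the 6 named features in the 8 groups, with a point per library and a bar at the mean. Both features that fell stand under 0.1 CPM in dark-grown callus with 4 mg/L and at 549 CPM or more in bulb, both that rose stand at 706 CPM or more in that callus and under 0.1 CPM in bulb, and both kept features overlap between these groups.

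More features were detected in callus than in bulb. For this count, CPM were taken on library totals, without TMM scaling. At least 1 CPM was reached by 37068, 36195 and 35763 features in callus libraries A, B and C, against 28777, 28676 and 30492 in bulb libraries 1, 2 and 3. The groups did not overlap and their means, 36342 ± 665 and 29315 ± 1021 (SD, n = 3 each), differed by 7027. The two-sided exact permutation test gave p = 0.1, the smallest value that 3 against 3 libraries allow, and 0.2 after adjustment over the 2 values tested in this way. The size of the gap rests on the scaling. Features with at least 1 CPM in each library of a group numbered 32540 in callus and 26706 in bulb with library totals. With TMM scaling they numbered 30662 and 28079. Any count at all was found for 315668 ± 15732 features in callus and 150192 ± 24439 in bulb, and after thinning every library to the lowest total for 271407 ± 11644 and 142481 ± 18041 (SD, n = 3 each), so the difference remained with equal totals. In bulk RNA, more cells of a kind and more RNA per cell cannot be told apart. The 100 most abundant features of each library took 12.0%, 11.2% and 12.3% of the counts in callus and 12.1%, 12.3% and 11.9% in bulb, a difference within the spread between libraries (exact permutation test, p = 0.6, adjusted 0.6). Other cuts gave other directions: the top 10 took 3.83% ± 0.372 in callus and 2.95% ± 0.237 in bulb, and the top 1000 took 34.8% ± 0.458 in callus and 38.0% ± 0.680 in bulb (SD, n = 3 each). The groups did not overlap in either cut, and the exact permutation test gave p = 0.1 for both, the smallest value possible.

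Lost, gained and kept features differed in form. A single isoform was assembled for 44.2% of the lost, 39.6% of the partly kept, 31.9% of the gained and 19.2% of the kept features, against 34.2% of all features tested. Relative length, the ratio of counts to TPM brought to a common scale, had a median of 0.851 for lost, 0.786 for partly kept, 1.25 for gained and 1.60 for kept features, against 1.22 for all tested. The kept class needs at least 1 CPM in 6 libraries, so level and length enter these shares together. Fold changes of all tested features moved with length as well: in 5 equal groups of the tested features, from the shortest to the longest, the median log2 fold change of callus over bulb was −0.06, 0.29, 0.38, 0.45 and 0.65. Among the kept features of the same groups it was −0.44, −0.46, −0.53, −0.44 and −0.09, with no steady rise over the 4 shorter groups. The part of RNA quality in this was not tested.

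Few features were lost while a relative in their assembly cluster was kept. Of the lost features, 40 (8.08%) shared a cluster with a kept feature, against 37.2% of all features tested. A Trinity cluster groups features that share sequence, and the lost features lay in 484 clusters. With counts summed per cluster, 370 of these were still lost, 57 were partly kept and 51 were kept. Where a lost feature is the only one of its cluster, the summed result is nearly fixed in advance. The gained features lay in 867 clusters, of which 663 were gained when summed and 77 were kept. A lost and a gained feature stood side by side in 2 clusters. Reads of near-identical relatives can be split between features, so a lost feature in a kept cluster is uncertain.

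Kept features could also change in the isoform they used. Of the 23965 kept features, 19295 had at least 2 isoforms with counts, and 13515 had the same most abundant isoform in all 3 libraries within callus and within bulb. That isoform differed between callus and bulb for 1608 of them (11.9%). In 553 of these it held the majority of the counts in each library, and in 2 the isoforms replaced each other fully, against 0 with salmon counts. Of the 1608, 847 (52.7%) were within 2-fold between callus and bulb, against 64.1% of all kept features. Counts from salmon, the other deposited quantification, gave 1622 such features (11.7%), of which 1040 were among the 1608. The cause of the difference between the quantifications was not tested.

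The callus groups were also compared by direct contrasts in the fit of 14 libraries, over all features tested and not only those of the bulb. Dark-grown callus with 4 mg/L differed from dark-grown callus with 2 mg/L in 914 of 123345 features (0.741%), of which 821 were higher and 93 lower. Against light-grown callus with 2 mg/L it differed in 29659 features (24.0%), 13775 higher and 15884 lower, and against light-grown callus with 4 mg/L in 14696 (11.9%), 5437 higher and 9259 lower (edgeR, FDR under 0.05). With library totals the direction turned in the contrast with light-grown callus at 2 mg/L, at 17409 higher and 12933 lower. The contrast with dark-grown callus at 2 mg/L depended on single libraries: it called 2159 features without replicate A of that group and 188 without its replicate C, 527 without replicate C of the callus with 4 mg/L, and 516 with library totals, of which 380 were higher. Between light-grown and dark-grown callus with 4 mg/L, leaving out replicate C of the light-grown group gave 5985 higher and 5897 lower features.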

How the data were processed

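Polyadenylated RNA of 6 libraries, 3 of dark-grown callus and 3 of bulb, was compared, with the other 15 of 21 libraries for description. The submitters' processing notes name fastp 0.23.4, kallisto 0.46.1 and Salmon 1.4.0 without saying which made which table, and the quantifier of the tables used here, the assembly settings and the read filters are not given in the sources used here. Per isoform, the authors deposited estimated counts, which were summed per feature (the name before the isoform suffix) and rounded to whole numbers. Per the file headers and values, the deposited TPM are per length and add up to the same total in every library, and 100% of the deposited gene values that are named as counts equal rescaled TPM within 1% plus 0.02 counts, a score that carries no count and was not tested. A further 7832 genes without isoform rows were at 0 TPM.

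Calls came from edgeR 4.0.16 (quasi-likelihood F test, TMM, filterByExpr, Benjamini-Hochberg FDR under 0.05) in R 4.3.3, on the 6 libraries, with p-values adjusted over all features tested. The other callus groups were tested in a fit of 14 libraries, with no block or covariate. The procedure was tested on simulated data. Intervals and floors (3 counts) cover counting error only. No replicate pair agreed within sampling noise, at a chi-square per feature of 7.93 to 15.8. Named features were the 2 called lost features highest in bulb, the 2 called gained features highest in callus, and the 2 highest kept features that were not called and had an absolute log2 fold change under 0.5. Groups, lists and limits were chosen with earlier results of these data known. Alternatives were library totals, RLE size factors, no filter or a filter of 1 CPM, DESeq2 1.42.0, limma 3.58.1 on log2(TPM + 1) or log2(TPM + 0.1), salmon and isoform counts, clusters, 14 or 21 libraries, thinning, other limits of the classes and each library left out.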

Additional observations from a re-analysis of the deposited data

Results flagged for a closer look

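The difference between dark-grown callus with 4 mg/L and each other callus group is also the difference between their contrasts with the same bulb libraries, and edgeR called it for 914 features against darkness with 2 mg/L, 29659 against light with 2 mg/L and 14696 against light with 4 mg/L.

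The named features were picked by their level in the dark-grown callus libraries with 4 mg/L, which enter both contrasts, so their values here are a description and no p is given. Values with an FDR under 0.05 (edgeR) are listed first. Both that fell against bulb stood lower in dark-grown callus with 4 mg/L than in light-grown callus with 2 mg/L, with a log2 fold change of −7.24 for Crpow_TRINITY_DN7946_c0_g1 and −5.49 for Crpow_TRINITY_DN3885_c0_g1. For Crpow_TRINITY_DN7946_c0_g1 the value against light-grown callus with 4 mg/L was −3.49. Against light-grown callus with 2 mg/L it was 3.55 for Crpow_TRINITY_DN110891_c1_g1, 3.71 for Crpow_TRINITY_DN13478_c0_g1 and 1.02 for Crpow_TRINITY_DN2385_c0_g1, and against light-grown callus with 4 mg/L 1.44 for Crpow_TRINITY_DN13478_c0_g1. The other values missed that threshold. For Crpow_TRINITY_DN3885_c0_g1 they were 2.40 against light with 4 mg/L and 1.93 against darkness with 2 mg/L, on at most 5 counts per library. For Crpow_TRINITY_DN110891_c1_g1 they were 0.07 and 0.71 against the same groups. For Crpow_TRINITY_DN7946_c0_g1 the value against darkness with 2 mg/L was −1.91.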

How the results depend on the processing

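Of the alternative values computed, 237 kept their direction and call or stayed within a wide tolerance of the main count. Another 27 moved and 20 turned in sign, most of these 20 for the 2 kept features named, whose values lay near 0. The 237 are thus not all unchanged. They include the 35232 higher and 13040 lower calls with library totals, against 25907 and 19260 in the main fit. Features called numbered 26288 with a filter of 1 CPM, which tests fewer features. Higher calls numbered 13839 with that filter, and 42002 and 39149 in fits of 14 and 21 libraries, which test more features. Lower calls numbered 12449 with that filter, and 12706 and 12446 with limma on log2(TPM + 1) and log2(TPM + 0.1). The classes follow their limits by construction: kept features numbered 10765 at 10 CPM; lost features 144 at 0 counts, 1558 under 0.5 CPM, 74 at 10 CPM and 918 at 0.5 CPM; gained features 440, 2539, 130 and 1837 under the same limits and 1887 on TPM. The median log2 fold change of kept features was 0.13 with library totals and 0.15 and 0.17 with these limma settings, with 9054, 8834 and 8760 higher and 6995, 6405 and 6368 lower (alternatives added after seeing the data). The difference in the share of the most abundant features was 0.880 percentage points for the top 10. The log2 fold change of Crpow_TRINITY_DN1738_c0_g1 was 0.49 with library totals, and, not called, 0.045 without a filter, 0.22 with the 1 CPM filter, 0.0069 with DESeq2, 0.56 with both limma settings and 0.057 after thinning. That of Crpow_TRINITY_DN2385_c0_g1 was 0.40 with library totals, 0.50 with both limma settings (FDR 0.0374 and 0.0405) and, not called, 0.13 with the 1 CPM filter. The contrast with dark-grown callus at 2 mg/L called 516 features with library totals. The cause of changes not set by construction was not tested.

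With each library left out in turn, 40727 to 51392 features were called, 22547 to 31560 higher and 18180 to 19952 lower. Kept features numbered 24103 to 24604, lost 527 to 584 and gained 921 to 1123. These ranges lie above the main 23965, 495 and 880 by construction, since fewer libraries then had to meet the limits. The difference in features with at least 1 CPM on library totals was 6664 to 7615.5 and in the share of the top 100 −0.518 to 0.0507 percentage points. The contrasts of callus groups called 188 to 2159 features for darkness with 2 mg/L, 22834 to 30867 for light with 2 mg/L and 10332 to 15443 for light with 4 mg/L. The log2 fold change was −14.95 to −14.53 for Crpow_TRINITY_DN7946_c0_g1, −14.87 to −13.29 for Crpow_TRINITY_DN3885_c0_g1, 15.93 to 19.66 for Crpow_TRINITY_DN110891_c1_g1, 18.07 to 18.67 for Crpow_TRINITY_DN13478_c0_g1, −0.22 to 0.14 for Crpow_TRINITY_DN1738_c0_g1 and −0.29 to 0.056 for Crpow_TRINITY_DN2385_c0_g1. No paired analysis was possible because callus libraries carry letters and bulb libraries numbers that nothing ties together.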
